A study of Mus musculus with 84 samples.

Results

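The 9 genes described here make and break down heme. Alas1, Alad, Uros, Urod, Cpox, Ppox and Fech encode enzymes of heme synthesis, and Hmox1 and Blvrb encode enzymes of its breakdown. They were taken by gene symbol from the 17695 genes in the count table, and all 9 were present. Liver RNA came from 84 male B6C3F1 mice, 8 weeks old, which ate AIN-93G diet for 7 days. The control group ate this diet without pesticide. The other 11 groups ate it with 1 of 3 organophosphate pesticides (OPPs), namely fenthion (FT) at 2.5, 5, 10 or 20 ppm, methidathion (MT) at 10, 25, 50 or 100 ppm, or parathion (PT) at 20, 40 or 80 ppm. At the study's rate of 0.15 mg/Kg-bw/day per ppm, intake of FT was 0.375 to 3 mg/Kg-bw/day, that of MT 1.5 to 15 mg/Kg-bw/day and that of PT 3 to 12 mg/Kg-bw/day. Each group held 7 mice, of which 2 belonged to experimental block 1, 3 to block 3 and 2 to block 4. The RNA of 77 mice was isolated by Expression Analysis Genomic Services (EA) and that of 7 by the U.S. EPA. The latter comprised 1 mouse from the MT 10 ppm group and 2 from each of 3 others, the MT 100 ppm, FT 20 ppm and control groups. Mice were housed in groups, and the labels do not give the cages, so mice of a group may have shared a cage. Each sample was bulk liver tissue, so that fewer cells of a type and less RNA per cell cannot be told apart.

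Heme is an iron-porphyrin built from glycine and succinyl-CoA in a chain of enzymes that begins and ends in mitochondria and passes through the cytosol. ALAS1 makes aminolevulinic acid and sets the rate of the chain in liver, where heme itself represses it and where much of the heme goes into cytochromes P450. Heme oxygenase opens the porphyrin ring to biliverdin, which biliverdin reductases turn into bilirubin.

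Promoter sequence is shown for Alas1, the gene the results turn on, and for Alad and Urod, whose levels were the most alike among the 9 genes. RefSeq start sites on build GRCm38.p6 gave 11 windows for 7 of the 9 genes, each holding the 250 bases before a start. On both strands, 3 motifs were searched, namely the palindrome of nuclear respiratory factor 1 (NRF1), CACGTG (the E-box) and GATAA (bound by GATA factors). Among all 32851 windows of this length, 3.74% held the first, 6.02% the second and 22.6% the third. The following stretches are written 5′ to 3′ on the strand of the gene, with the motif in capitals. For Alas1 they are the 20 bases around each of its NRF1 palindromes, at chr9:106247940-106247959 and chr9:106247911-106247930 (minus strand), in the window before the downstream one of its 2 start sites. For Alad and Urod they are the windows at chr4:62520064-62520313 and chr4:116994414-116994663 (both minus strand).
Alas1 match 1: ggcgcGCGCGTGCGCgcggc
Alas1 match 2: ccaagGCGCATGCGCggcgg
Alad: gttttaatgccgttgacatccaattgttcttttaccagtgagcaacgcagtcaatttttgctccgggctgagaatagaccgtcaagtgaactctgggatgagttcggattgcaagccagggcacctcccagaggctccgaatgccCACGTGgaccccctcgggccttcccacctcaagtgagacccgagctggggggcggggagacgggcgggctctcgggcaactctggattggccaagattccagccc
Urod: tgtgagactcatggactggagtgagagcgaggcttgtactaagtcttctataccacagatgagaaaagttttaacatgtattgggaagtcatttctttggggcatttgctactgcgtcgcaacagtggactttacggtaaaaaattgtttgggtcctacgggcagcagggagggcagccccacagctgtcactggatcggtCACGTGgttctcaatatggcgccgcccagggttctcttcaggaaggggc
CACGTG was found once in each of the 2 windows of Alad, of which the upstream one is shown, once in that of Urod and once in the upstream window of Uros, which also held an NRF1 palindrome. GATAA was found in windows of Uros and Cpox, and none of the 3 motifs in those of Ppox and Blvrb. A match describes the letters and was not tested for binding.

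Counts per mouse lay between 6950381 and 15300589, and 3 counts, taken as the smallest number measured, corresponded to between 0.196 and 0.432 CPM (counts scaled to the total of the library). All 9 genes had a median count above 8 and entered the tests, which compared counts of 10415 genes by edgeR (quasi-likelihood), held block and RNA isolator as covariates and adjusted p-values over all of these genes by Benjamini-Hochberg. The samples matched their tissue. All 8 hepatocyte markers were detected in every group, and their summed level lay between 24312 and 46323 CPM. Of 11 markers of red cells and their precursors, 8 were in the table. Levels are compared within a gene only, since the number of probes per gene was not given in the sources used here.

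Alas1 (ENSMUSG00000032786, chr9:106110642-106135734 on GRCm39, minus strand) varied more between mice of a group than between the group means. Its mean was lowest at FT 10 ppm, with 41.5 ± 25.7 CPM (SD, n = 7), and highest at PT 80 ppm, with 294 ± 264 CPM, against 93.5 ± 93.5 CPM in the control group. The other means were 98.7, 91.9 and 159 CPM at FT 2.5, 5 and 20 ppm. For MT they were 95.04, 47.2, 114 and 136 CPM at 10, 25, 50 and 100 ppm, and for PT they were 189 and 135 CPM at 20 and 40 ppm. In the order of the 12 means, no step between neighbours was larger than the larger of their 2 SDs, and the largest step, 105 CPM, lay between PT 20 ppm and PT 80 ppm.

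Mouse by mouse, Alas1 in the control group was at 69.7 and 287 CPM in block 1, at 42.6, 44.1 and 139 CPM in block 3 and at 15.8 and 56.1 CPM in block 4. At PT 80 ppm it was at 398 and 795 CPM in block 1, at 23.5, 50.7 and 198 CPM in block 3 and at 207 and 388 CPM in block 4. Thus 2 of the 7 mice at PT 80 ppm lay below the control median of 56.1 CPM, and the groups overlapped.
For FT, the lowest, median and highest mouse were at 17.1, 31.8 and 331 CPM at 2.5 ppm and at 34.1, 80.1 and 149 CPM at 5 ppm. They were at 17, 41.2 and 85.2 CPM at 10 ppm and at 26.9, 152 and 299.7 CPM at 20 ppm. The medians at FT 2.5 and 10 ppm were below that of the control group, and those at 5 and 20 ppm above it.
For MT, the lowest, median and highest mouse were at 20.6, 80.9 and 202 CPM at 10 ppm and at 22.4, 36.9 and 74.8 CPM at 25 ppm. They were at 12.98, 104 and 204 CPM at 50 ppm and at 28.5, 66.4 and 384 CPM at 100 ppm. The mice at MT 25 ppm were the closest together, with a ratio of highest to lowest of 3.34, against 33.8 at PT 80 ppm.
For PT, they were at 51.2, 143 and 456 CPM at 20 ppm and at 26.98, 123 and 385 CPM at 40 ppm. All 11 dosed groups overlapped the control group.

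**Figure D1:**
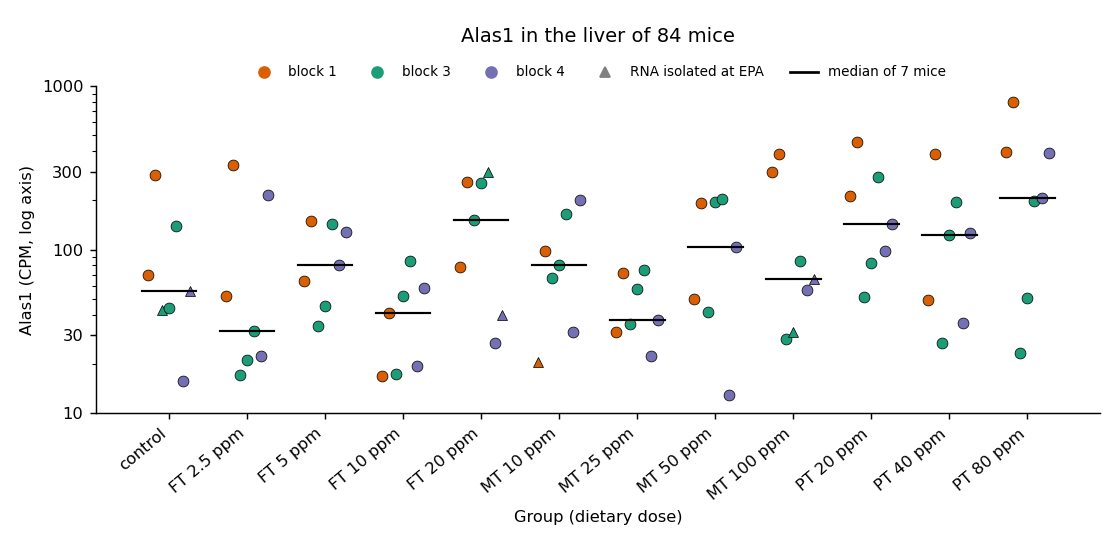
Alas1 in CPM on a log axis for each of 84 mice (points) by group, with color for the experimental block, triangles for RNA isolated at the U.S. EPA and a line at the median of the 7 mice. All dosed groups overlap the control group, and the 2 mice of block 1 lie at 398 and 795 CPM at PT 80 ppm.

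Alas1 was chosen because of its difference from the control group in log2 values that the authors had adjusted for block and RNA isolator, so its differences are given without a test. Fitted to the counts, its log2 fold change against control was -0.07, -0.04, -1.12 and 0.98 at FT 2.5, 5, 10 and 20 ppm. It was 0.14, -0.99, 0.24 and 0.38 at MT 10, 25, 50 and 100 ppm, and 0.87, 0.41 and 1.40 at PT 20, 40 and 80 ppm. The SE of these values was between 0.62 and 0.65. Only 7 of the 11 values were positive, and no series of doses rose at each step. Within blocks the value at PT 80 ppm was not alike, with 0.01 in block 3 alone and 3.63 in block 4 alone.

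In the deposited adjusted values Alas1 was higher than in the control group in all 11 dosed groups, by 0.01 at MT 10 ppm to 3.01 at PT 80 ppm on the log2 scale. The adjusted difference was 1.63, 2.14, 1.99 and 2.01 at FT 2.5, 5, 10 and 20 ppm. It was 1.33, 2.18 and 1.84 at MT 25, 50 and 100 ppm, and 2.67 and 1.81 at PT 20 and 40 ppm. A plain difference of the group means of log2(CPM + 1) had the opposite sign in 3 groups, namely -0.31 at FT 2.5 ppm, -0.87 at FT 10 ppm and -0.57 at MT 25 ppm. Under the limits of the study, which ask of each OPP an adjusted p under 0.05 in an F test across its doses and the control group and a change of at least 2-fold, Alas1 was the 1 of 9 genes to pass, and it did so with all 3 OPPs. Of all 11064 genes with adjusted values, 9.93% passed for FT, 7.90% for MT and 9.39% for PT. Since Alas1 was chosen on these values, this is a description. When the counts themselves were used, as log2(CPM + 1) and with both covariates in the model, 0 of 9 genes passed for any OPP, and 0 had an adjusted p under 0.05.

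Each adjusted difference was a weighted sum of unadjusted log2 CPM values (1 added to each count before scaling) over the mice, with an error of at most 6.03e-05. Mice of groups other than the 2 compared also had weight, 14 of them at PT 80 ppm and 28 at FT 10 ppm. Their summed absolute weight was between 0.89 at PT 40 and 80 ppm and 2 at FT 10 ppm. In that sum the single block 4 control mouse handled by EA had a weight between -0.33 at MT 10 ppm and -1.17 at FT 10 ppm, where a plain mean gives each control mouse -0.14. This mouse had the lowest Alas1 level of the control group, with 185 counts or 15.8 CPM. Its log2 CPM was 3.99, against a mean of 6.35 in the other 6 control mice. With this mouse set to the mean of the other 6, a setting chosen after its values were seen, the adjusted difference of Alas1 lay between -1.03 at MT 25 ppm and 0.86 at PT 20 ppm, and it was positive in 5 of 11 groups. At PT 80 ppm it was then 0.80 in place of 3.01, and at FT 10 ppm -0.77 in place of 1.99. The weight of this control mouse fixes the size of the change in advance, so the exchange tests no cause. The other 6 control mice were of block 1 or 3 or had RNA isolated at the U.S. EPA. Their mean is therefore not a level for block 4 and EA, and it carries differences that the adjustment removed. No other mouse was exchanged in the sum. In the fit to the counts, leaving out this mouse changed the value at PT 80 ppm less, from 1.40 to 1.18.

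**Figure D2:**
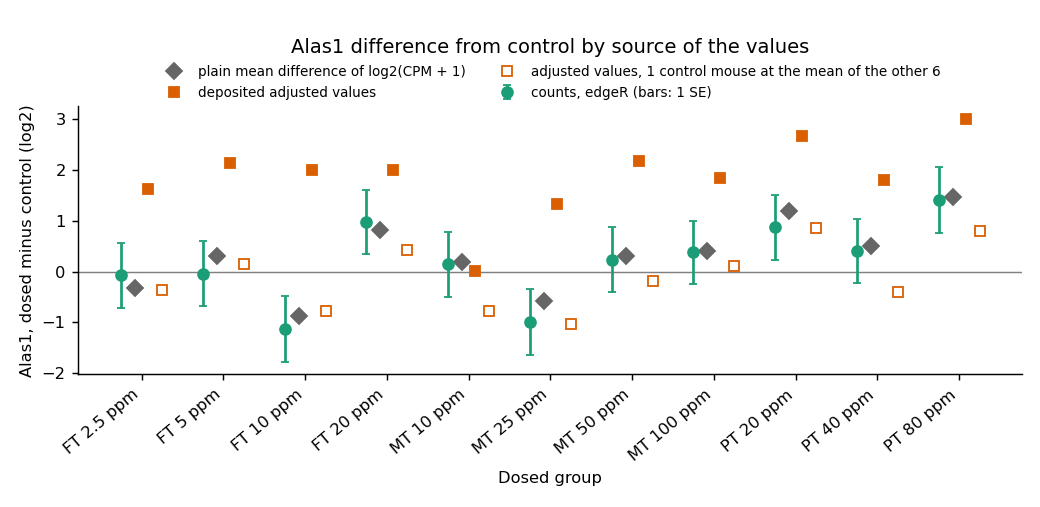
Difference of Alas1 between each dosed group and control on a log2 scale, from the counts by edgeR (circles with 1 SE), as a plain difference of mean log2(CPM + 1) (diamonds), in the deposited adjusted values (filled squares) and in these values with 1 control mouse set to the mean of the other 6 (open squares). The filled squares lie at or above 0 in all 11 groups, between 0.01 and 3.01, and the open squares between -1.03 and 0.86.

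Alas1 also differed between blocks and isolators, again given without a test. Its mean was 200 ± 190 CPM in the 24 mice of block 1, 96.6 ± 80.0 CPM in the 36 mice of block 3 and 91.4 ± 88.8 CPM in the 24 mice of block 4. The fitted log2 difference from block 1 was -0.72 ± 0.32 (SE) in block 3 and -0.90 ± 0.35 in block 4. Block 1 had the highest mean of the 3 blocks in 7 of 12 groups, among them the control and all PT groups. In mice with RNA isolated at the U.S. EPA the level was 79.5 ± 98.3 CPM (n = 7), against 129 ± 133 CPM at EA (n = 77), a fitted log2 difference of -0.79 ± 0.57.

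The spread of Alas1 between mice stood out among the genes tested. With group, block and isolator subtracted, its SD was 1.24 on the log2(CPM + 1) scale, the 15th largest of 10415 genes, whose median was 0.24. The other 8 genes had SDs between 0.16 (Fech) and 0.32 (Hmox1). Fech, which inserts iron into the ring, was among the steadier genes, and 85.9% of genes had a larger SD. Counting error weighs most on Hmox1, with a median of 13.5 counts per mouse, and on Ppox, with 34. The 1 added to the CPM also narrows the spread of scarce genes on this scale, so the order of SDs depends on it. As a percentage of the mean CPM of a group, the median SD was 39.5% for Hmox1 and 31.6% for Ppox. It was 73.5% for Alas1 and 12.5% for Fech, with block and isolator not subtracted.

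**Figure D3:**
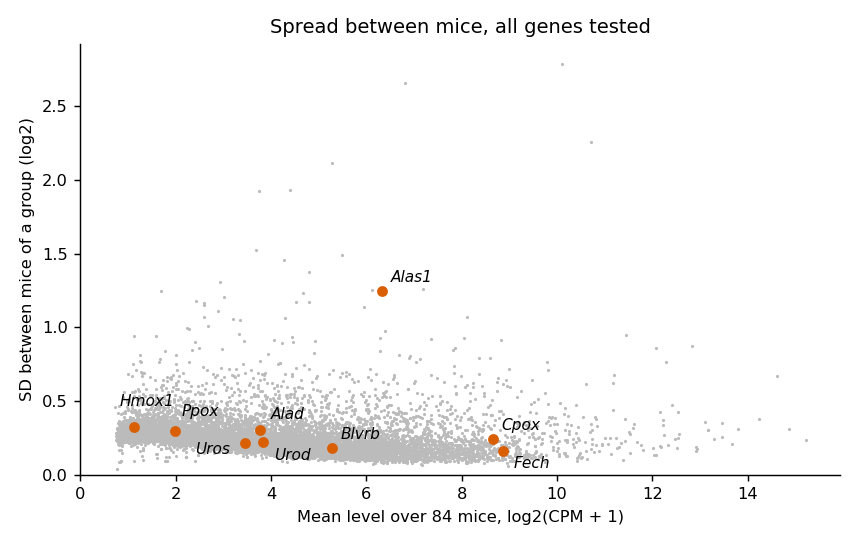
SD between mice of a group on a log2 scale, after group, block and isolator were subtracted, against the mean level in log2(CPM + 1), for all genes tested (grey) and the 9 genes of heme synthesis and breakdown (orange). Alas1 lies at an SD of 1.24 and the other 8 between 0.16 and 0.32.

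None of the other 8 genes passed the test against the control group in any of the 11 dosed groups. Of the 88 differences, 0 passed an adjusted p under 0.05 with edgeR, 0 with DESeq2 and 0 with limma-voom, and 4 had an unadjusted p under 0.05 with edgeR. At PT 80 ppm, where 18.6% of all genes passed, 0 of 8 did. At FT 10 ppm 1.57% of all genes passed and at MT 100 ppm 0.0768%, and 0 of 8 did in either. In each of the other 8 dosed groups no more than 0.00960% passed. The intervals bound what a difference could have been. At PT 80 ppm, 6 of the 8 95% intervals lay within 1.5-fold of control in both directions and 7 within 2-fold, all but that of Hmox1.

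Among the cytosolic enzymes, Alad (ENSMUSG00000028393, chr4:62423283-62438587), which joins aminolevulinic acid molecules to porphobilinogen, was at 11.9 ± 2.78 CPM in the control group and between 11.4 CPM (MT 25 ppm) and 14.8 CPM (FT 2.5 ppm) in the dosed groups. Its log2 fold change lay between -0.09 and 0.26. Uros (ENSMUSG00000030979, chr7:133285987-133311801), which closes the porphyrin ring, was at 11.3 ± 2.07 CPM in the control group and lowest at FT 5 ppm, with 9.12 ± 1.29 CPM. The control mean held 2 mice with RNA isolated at the U.S. EPA, in which Uros was higher (described with the isolators). The fold change of Uros had the lowest p at PT 80 ppm (-0.27 ± 0.13 SE, edgeR adjusted p = 0.138), where it did not pass. Urod (ENSMUSG00000028684, chr4:116844840-116851610), which removes carboxyl groups from the ring, was at 13.6 ± 4.14 CPM in the control group and between 12.2 CPM (MT 100 ppm) and 15.6 CPM (PT 40 ppm) in the dosed groups. The group means of these 3 genes differed by at most 1.30-fold, with no order by dose that exceeded the spread between mice.

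Among the mitochondrial enzymes, Cpox (ENSMUSG00000022742, chr16:58490414-58537999), which oxidizes coproporphyrinogen, was at 404 ± 33.9 CPM in the control group and between 381 CPM (FT 5 ppm) and 456 CPM (FT 10 ppm) in the dosed groups. Ppox (ENSMUSG00000062729, chr1:171100969-171109385), which oxidizes protoporphyrinogen, had its highest group mean in the control group, 3.51 ± 0.87 CPM, and its lowest at FT 10 ppm, 2.58 ± 0.93 CPM. Its log2 fold change there was -0.24 and did not pass. The control group mean also held 2 of the 7 mice with RNA isolated at the U.S. EPA, in which Ppox was higher (described with the isolators).

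Fech (ENSMUSG00000024588, chr18:64585985-64623322), the last enzyme of synthesis, came closest to passing. In CPM it was lowest in the control group, of which 2 mice had RNA isolated at the U.S. EPA, where Fech was lower (described with the isolators). In that group the lowest, median and highest mouse were at 351, 377 and 521 CPM. At PT 80 ppm, where the mean was highest, they were at 408, 543 and 607 CPM. The groups overlapped through 1 mouse at PT 80 ppm, of block 1, which lay at 408 CPM while the other 6 lay at or above 521 CPM. The log2 fold change was 0.23 ± 0.09 (SE) with an edgeR adjusted p of 0.0555. Without that mouse it was 0.33, with an adjusted p of 0.00211. Without the control mouse of block 3 isolated at the U.S. EPA it was 0.24, with an adjusted p of 0.0472. Leaving out any other single control or PT 80 ppm mouse gave an adjusted p between 0.0601 and 0.138. The adjusted p was also higher for EA mice alone (0.0861), for a fit that kept scarce genes (0.108) and for control and PT 80 ppm mice fitted by themselves (0.451). In block 1 alone the log2 fold change was -0.11, and it was 0.33 and 0.38 in blocks 3 and 4. At MT 100 ppm Fech was at 501 ± 60.5 CPM, and its log2 fold change of 0.27 ± 0.08 had an adjusted p of 0.138. All 11 fold changes of Fech were positive, between 0.05 and 0.27, but they share the same 7 control mice.

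Hmox1 (ENSMUSG00000005413, chr8:75820241-75827217), the inducible heme oxygenase, was scarce, with 3 to 41 counts per mouse. In CPM its mean was 1.41 ± 0.73 in the control group, 1.57 ± 0.61 at PT 20 ppm, 1.01 ± 0.33 at PT 40 ppm and 0.90 ± 0.68 at PT 80 ppm, the lowest of all groups. The highest group mean was 1.71 ± 0.68 CPM at MT 50 ppm. The log2 fold change at PT 80 ppm against control was -0.61 ± 0.34 (SE), with an edgeR adjusted p of 0.228. Without 1 mouse at PT 80 ppm, of block 1, it was -1.097 with an adjusted p of 0.0252. In block 1 alone it was 0.61, and in blocks 3 and 4 it was -0.92 and -1.28. Blvrb (ENSMUSG00000040466, chr7:27147275-27165569), a biliverdin reductase, was lowest in the control group, 34.1 ± 6.50 CPM, and highest at PT 80 ppm, 42.02 ± 6.73 CPM. The control mean held 2 mice with RNA isolated at the U.S. EPA, in which Blvrb was lower (described with the isolators). The 11 fold changes of Blvrb lay between 0.04 and 0.15, and the lowest adjusted p was 0.323.

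**Figure D4:**
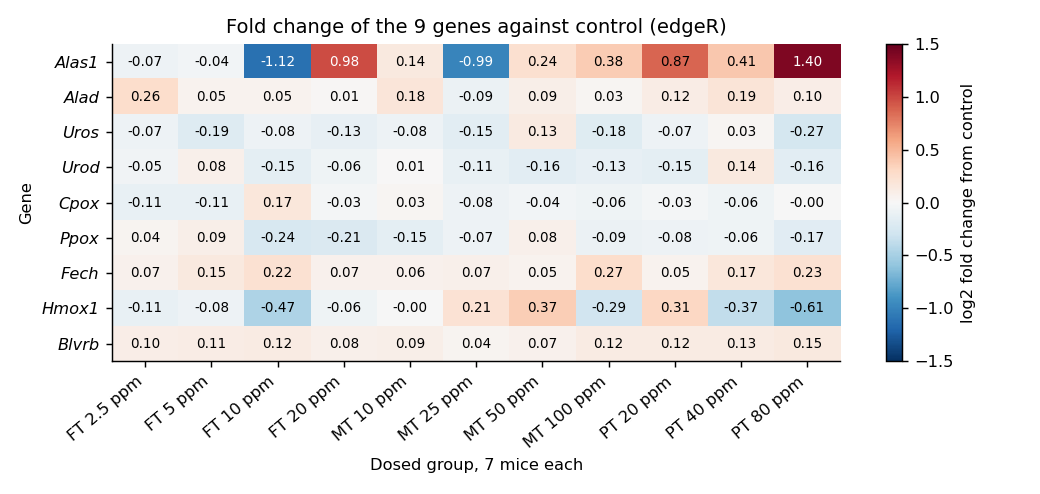
Log2 fold change of the 9 genes (rows) against control in the 11 dosed groups of 7 mice (columns), by edgeR with block and isolator as covariates, with the value written in each cell and red for higher. Alas1 runs from -1.12 to 1.40, and no cell of the other 8 genes passed an adjusted p under 0.05.

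Between the lowest and the highest dose of each OPP, 1 of 24 differences passed. Hmox1 was lower at PT 80 ppm than at PT 20 ppm, by a log2 fold change of -0.91 ± 0.33 (SE, edgeR adjusted p = 0.0349), in a comparison in which 21.9% of all genes passed, 10.4% as lower. The 7 mice at PT 20 ppm held 23, 12, 29, 10, 16, 12 and 22 counts of Hmox1. Those at PT 80 ppm held 25, 3, 13, 5, 8, 7 and 8 counts. Thus 5 of 7 mice at PT 80 ppm lay below every mouse at PT 20 ppm in counts, and 1 mouse at PT 80 ppm, of block 1, lay above all but 1 of them. Without that mouse the difference was -1.40 (adjusted p = 0.00168), and without any 1 of 8 other mice the adjusted p rose to between 0.0563 and 0.0950. It was also lost with no filter on low counts (adjusted p = 0.0582) and with only these 2 groups fitted (adjusted p = 0.163), and kept with DESeq2 (0.0270) and limma-voom (0.0112). Macrophages of the liver (Kupffer cells) are a known site of Hmox1, and 7 of 10 of their markers tested were lower at PT 80 ppm than at PT 20 ppm and 0 higher. Their summed level over 12 markers was between 75.1 and 275 CPM at PT 80 ppm and between 192 and 435 CPM at PT 20 ppm, and their defining markers Marco and Timd4 were each at 0 in 22 of 84 mice. Their part in the result was not tested. Between FT 20 and 2.5 ppm 0 of 8 genes passed (0 of all genes), with 0 at an unadjusted p under 0.05, and between MT 100 and 10 ppm 0 of 8 (0.0384% of all genes, 0.0288% as higher), with 1.

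The OPPs could be compared at 2 matched doses. At 1.5 mg/Kg-bw/day (MT 10 ppm against FT 10 ppm) and at 3 mg/Kg-bw/day (PT 20 ppm against FT 20 ppm), 0 of 8 genes passed with edgeR and 0 of all genes did, and none of these 16 differences had an unadjusted p under 0.05. DESeq2 and limma-voom also gave 0, and 1 and 0 at an unadjusted p under 0.05. The closest was Fech, at 453 ± 44.9 CPM at MT 10 ppm and 506 ± 80.4 CPM at FT 10 ppm, a log2 difference of -0.16 with a 95% interval from -0.33 to 0.01. These data do not show that the OPPs act alike. For MT against FT the intervals of 7 genes lay within 1.5-fold, and that of Hmox1 ran from -0.19 to 1.12. For PT against FT that of Hmox1 ran from -0.27 to 1.00 and the other 7 lay within 1.5-fold. Alas1 differed by 1.27 ± 0.63 (SE) between MT 10 and FT 10 ppm and by -0.11 ± 0.67 between PT 20 and FT 20 ppm. It was not tested, having been chosen from its group differences in these data. FT and MT are dimethyl esters and PT is a diethyl ester.

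More of these genes passed between RNA isolators and between block 1 and the other blocks than against control, and so did more of all genes. The comparisons rest on unlike numbers of mice, so their counts are not alike in power. Dosed groups were set against control as 7 mice against 7, isolators as 7 against 77, and each block held 24 or 36. Between the isolators 5 of 8 genes passed, beside 38.7% of all genes, 19.6% as higher in the U.S. EPA mice. Uros and Ppox were higher in the 7 mice isolated at the U.S. EPA, and Urod, Fech and Blvrb were lower. Ppox was at 4.65 ± 1.22 CPM (lowest 2.90, median 4.87, highest 6.12) at the U.S. EPA and at 2.92 ± 0.82 CPM (lowest 1.202, median 2.82, highest 5.72) at EA. The fitted log2 difference was 0.58 ± 0.16 (SE, edgeR adjusted p = 0.00334), and without the 1 mouse at MT 10 ppm it was 0.43 (adjusted p = 0.0660). Uros was at 13.8 ± 1.78 CPM at the U.S. EPA and at 9.90 ± 1.72 CPM at EA, a log2 difference of 0.36 ± 0.10 (adjusted p = 0.00310). The levels of both genes overlapped between the isolators. Fech differed by -0.30 ± 0.07 (adjusted p = 0.000422), Blvrb by -0.32 ± 0.08 (adjusted p = 0.00173) and Urod by -0.33 ± 0.11 (adjusted p = 0.0108).

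Between blocks 3 and 1, 5 of 8 genes passed, beside 40.0% of all genes, and between blocks 4 and 1, 3 of 8, beside 38.1%. Cpox was lowest in block 1, with 363 ± 67.5 CPM (n = 24), against 418 ± 62.5 CPM in block 3 (n = 36) and 431 ± 67.1 CPM in block 4 (n = 24). Its log2 difference from block 1 was 0.26 ± 0.06 (SE, edgeR adjusted p = 0.000494) in block 3 and 0.28 ± 0.07 (adjusted p = 0.000751) in block 4. Fech went the other way. It was at 542 ± 54.1 CPM in block 1, 445 ± 55.8 CPM in block 3 and 446 ± 60.2 CPM in block 4, log2 differences of -0.23 ± 0.04 (adjusted p = 8.26e-06) and -0.24 ± 0.05 (adjusted p = 2.58e-05). Blvrb was lower than in block 1 in both blocks (-0.13 and -0.19, adjusted p = 0.0280 and 0.00288). Alad and Urod were lower in block 3 (-0.26 and -0.20, adjusted p = 0.00781 and 0.00827), and in block 4 their adjusted p was 0.128 and 0.0982. Between blocks 4 and 3, 0 of 8 genes passed (0.0384% of all genes), with 0 at an unadjusted p under 0.05. What set block 1 apart is not given in the labels.

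**Figure D5:**
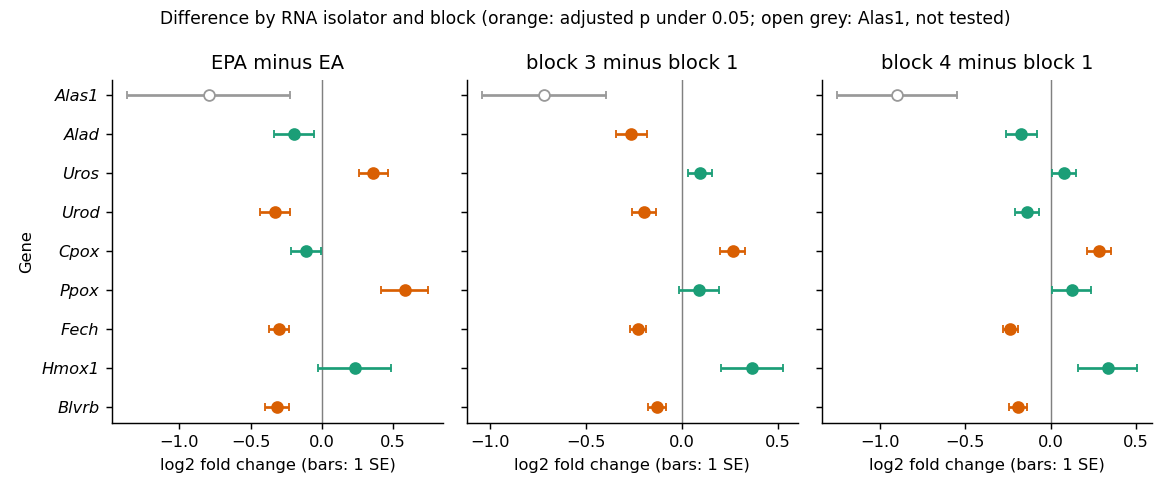
Log2 fold change with 1 SE of the 9 genes between RNA isolators (left) and between block 3 or block 4 and block 1 (middle and right), by edgeR. Orange marks an adjusted p under 0.05 (5, 5 and 3 of 8 genes), green a gene that did not pass, and open grey Alas1, which was not tested. Uros and Ppox lie above 0 between isolators while Urod, Fech and Blvrb lie below it.

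Alas1 varied little with the other 8 genes from mouse to mouse. Over the 84 mice, with group, block and isolator subtracted, Pearson's r between Alas1 and each of the other 8 lay between -0.24 (Ppox) and 0.01 (Blvrb). The 28 pairs among the other 8 had a median r of 0.13, from -0.35 (Fech and Hmox1) to 0.59 (Alad and Urod), followed by 0.38 for Alad and Blvrb and 0.37 for Cpox and Fech. All genes of a mouse share its library, so these values are a description.
The 5 genes whose levels were most like those of Alas1 by this measure were Zfp970 (r = 0.85), Pfkfb3 (0.81), Zfp809 (0.76), Gm14403 (0.75) and Onecut1 (0.74). Pfkfb3 encodes an enzyme that makes fructose-2,6-bisphosphate and Onecut1 a liver transcription factor, and Zfp970 and Zfp809 encode zinc finger proteins. The 3 most opposite were Bcar3 (-0.73), Rhpn2 (-0.71) and Stard13 (-0.70).
In blocks 1, 3 and 4, r was 0.88, 0.81 and 0.87 for Zfp970 and 0.81, 0.80 and 0.81 for Pfkfb3. It was 0.66, 0.77 and 0.84 for Zfp809, 0.70, 0.74 and 0.79 for Onecut1, and -0.82, -0.76 and -0.60 for Bcar3. Without any subtraction the same 5 were the highest, and the 3 most opposite were Bcl6 (-0.72), Tnfaip2 (-0.72) and Hjv (-0.71). Bcl6 encodes a transcriptional repressor and Hjv hemojuvelin, which takes part in iron sensing.
The factors known to act on Alas1 had weaker values. Over the list of 10, r ran from -0.38 (Nfe2l2) to 0.44 (Hnf4a), with 0.05 for Ppargc1a, a coactivator of the fasting response, and 0.27 for Foxo1. Over a list of 13 P450 genes and their reductase, the extremes of r were 0.53 for Por, that reductase, and -0.52 for Cyp8b1, an enzyme of bile acid synthesis. The rest lay between -0.11 (Cyp2c54) and 0.35 (Cyp7a1), with 0.11 for Cyp3a11, 0.10 for Cyp2e1 and -0.10 for Cyp2c29.

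At PT 80 ppm 9.73% of all genes passed as higher and 8.89% as lower, against which the lists of genes around the pathway are read. Of the other 10 genes of heme synthesis and breakdown listed, 9 were tested and 1 fell. This was Alas2, the isozyme of red cell precursors (log2 fold change -1.38 ± 0.35 SE, edgeR adjusted p = 0.00317). All 4 red cell markers tested fell, Alas2 among them, and the summed level of the 8 in the table was between 16.2 and 57.1 CPM at PT 80 ppm and between 36.5 and 157 CPM in the control group. Their part in the change of Alas2 was not tested.

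Of 13 heme carriers and heme-binding proteins tested, 3 fell and 0 rose. Hpx, the plasma protein hemopexin that binds free heme, fell by 1.07 on the log2 scale (adjusted p = 0.0226), and the mitochondrial transporter Abcb10 fell by 0.59 (adjusted p = 0.00198). Of 12 genes of iron handling, 4 rose and 1 fell. The transferrin receptor Tfrc rose by 1.12 and Bmp6, a signal of liver iron load, by 0.92 (adjusted p = 0.000509 and 0.000784). Slc40a1, which encodes the iron exporter ferroportin, rose by 0.35 (adjusted p = 0.0235), and Hfe, a partner of the transferrin receptors, fell by 0.36 (adjusted p = 0.00818). Fth1, ferritin heavy chain, rose at PT 80 ppm and also at FT 10 ppm (0.30, adjusted p = 0.0267), where it was the 1 of 12 that passed. The median log2 fold change was -0.05 for the carriers and 0.04 for the iron genes, against 0.01 over all genes tested.

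Outside the cell marker lists, the list with the largest share that passed at PT 80 ppm was that of the cytochrome P450 genes and their reductase. The lists were chosen with earlier results of these data known, so this order of lists is a description. Of 13 cytochrome P450 genes and their reductase tested, 9 rose and 0 fell at PT 80 ppm, with a median log2 fold change of 1.12. They included Cyp4a10 (7.89 ± 0.74 SE), a fatty acid hydroxylase, Cyp2c54 (2.03 ± 0.22), Por (2.33 ± 0.32) and Cyp2e1 (0.98 ± 0.14), each with an edgeR adjusted p of 1.16e-07 or less. At MT 100 ppm 5 of the 13 rose, led by Cyp2c55 (2.77, adjusted p = 1.31e-11) and Cyp2c29 (2.54, adjusted p = 5.80e-15), where 0.0672% of all genes passed as higher. At FT 10 ppm, where 0.835% of all genes passed as higher, 4 rose, Cyp4a10, Cyp2c55, Cyp3a11 and Cyp2c29, with adjusted p between 0.0241 and 0.0300. Near-identical Cyp2c genes can share reads, so these are uncertain as single genes. Alas1 over the same comparisons had log2 fold changes of 1.40, 0.38 and -1.12. Of 10 genes tested from a list of further heme proteins, which also holds Cybb of phagocytes, Cygb of stellate cells and the flavoprotein Sqor, 2 rose (Cyb5a by 0.69 and Tdo2 by 0.59) and 1 fell (Cyb5b, by 0.49) at PT 80 ppm.

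Of the 10 factors known to act on Alas1, 5 rose and 0 fell at PT 80 ppm. They were Nr1i3 (log2 fold change 1.78 ± 0.24 SE), the receptor CAR, Ppargc1a (1.096 ± 0.205), Hnf4a (0.53 ± 0.12), Nr1i2 (0.52 ± 0.12), the receptor PXR, and Foxo1 (0.64 ± 0.24), with edgeR adjusted p between 5.14e-08 and 0.0477. At MT 100 ppm and at FT 10 ppm 0 of 10 passed. Of 9 genes induced by fasting, 4 rose at PT 80 ppm, among them Igfbp1 (3.00 ± 0.69) and Tat (1.57 ± 0.43). Of 10 clock genes tested, 4 rose, namely the output genes Hlf (1.82 ± 0.28), Tef (1.34 ± 0.41) and Dbp (2.06 ± 0.67), and the Period gene Per3 (1.66 ± 0.48). Of 9 targets of Nrf2, a factor that also induces Hmox1, 2 rose (Abcc3 by 1.87 and Nqo1 by 1.13) and 1 fell (Ugdh, by 0.41). Beside these, 4 of 10 Kupffer cell markers and 1 of 7 markers of stellate and endothelial cells fell at PT 80 ppm, as did Spp1, the 1 marker of bile duct cells tested, and 2 of 8 hepatocyte markers rose and 1 fell.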

How the data were processed

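Liver RNA of 84 mice was measured by TempO-Seq, a targeted probe assay read by sequencing. The authors' trimmed reads were placed on mm39 by STAR, and Partek estimated a count per Ensembl gene. The deposited estimated counts (17695 genes, 18.7% of values not whole) were rounded here before testing. The deposited adjusted values, entered as a score, are log2 CPM values of 11064 genes, reproduced here with 1 added to each count before scaling. The authors adjusted them for block and isolator by a linear model in Partek. Within each group, the means of sets of mice sharing block and isolator differed by at most 8.33e-05 for any gene. Differences between such sets were thus removed group by group, and the 11 mice alone in a set lay at their group mean. In the control group the SD of Alas1 was 0.76 in these values and 1.31 in log2(CPM + 1). Totals per mouse and the CPM of 3 counts are given in the report, and depth limits chiefly Hmox1 and Ppox.

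Groups came from the labelled treatment. Replicates were separate mice, and cages are not in the labels. Genes with a median count above 8 (10415) were fitted in edgeR 4.0.16 (R 4.3.3) with TMM normalization, the quasi-likelihood test and group, block and isolator as terms over all 84 mice. A call is a Benjamini-Hochberg adjusted p under 0.05 over all genes tested. The 95% intervals used 69 residual degrees of freedom. The scripts were tested on simulated data. DESeq2 1.42.0, limma-voom 3.58.1, other normalization, filters, covariates and samples were tried as alternatives. Every adjusted p printed is edgeR's unless another tool is named.

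The 9 genes and the gene lists were chosen with earlier results of these data known. The genes named were these 9, the 5 most and 3 least like Alas1 by Pearson's r, and members of the fixed lists. Alas1 was chosen from its change and was not tested. Gene coordinates are those of GRCm39, and promoter windows are from RefSeq on GRCm38.p6. Results of some single genes of the lists are not reported here.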

Additional observations from a re-analysis of the deposited data

Results flagged for a closer look

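Of the 108 sets of 7 mice formed by 9 genes and 12 groups, 8 held 1 mouse that stood far from the other 6 by Dixon's test, which chance gives in about 1 in 20 sets. Alad was at 17.5 CPM in 1 mouse at MT 25 ppm (block 1), with the next at 11.1 CPM, and at 18.98 CPM in 1 mouse at MT 100 ppm (block 1), with the next at 12.9 CPM. Urod was at 18.3 CPM in 1 mouse at MT 10 ppm (block 3), with the next at 14.6 CPM. Cpox was at 327 CPM in 1 mouse at MT 50 ppm (block 1), with the next at 399.9 CPM. Ppox was at 6.12 CPM in the U.S. EPA mouse at MT 10 ppm, with the next at 2.97 CPM, and at 6.06 CPM in a U.S. EPA mouse at MT 100 ppm (block 3), with the next at 3.48 CPM. Fech was at 677 CPM in 1 mouse at FT 10 ppm (block 1), with the next at 534 CPM, and at 408 CPM in 1 mouse at PT 80 ppm (block 1), with the next at 521 CPM. No set of Alas1, Uros, Hmox1 or Blvrb was among the 8.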

How the results depend on the processing

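The count of 0 of 88 differences from control was also 0 with DESeq2, limma-voom, other size factors, no filter, no covariates, EA mice only, only the groups compared and each block alone. It was 0 to 2 with 1 control or PT 80 ppm mouse left out, and 28 in the deposited adjusted values. The share of all genes that passed in that test of the adjusted values is not given here. The 28 are therefore not read as a result about these genes. The 1 call between doses became 0 with no filter or only the groups compared, and 0 to 2 with 1 PT 20 or 80 ppm mouse left out. The members passing on the adjusted values (1 for each OPP) became 0 for each with log2(CPM + 1) of the counts, and 5 for FT, 8 for MT and 6 for PT with no fold limit. No share of all genes is given for the counts without the fold limit, so they too are a description. Calls between isolators were 4 to 5 with 1 U.S. EPA mouse left out, and Blvrb between blocks 3 and 1 was lost with no filter (edgeR adjusted p = 0.0773).

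Alas1 moved between blocks and between scales. In block 4 alone its log2 fold change was 2.38, 2.16 and 0.71 at FT 2.5, 5 and 10 ppm, 2.36 and 0.44 at MT 10 and 25 ppm, and 2.44, 1.73 and 3.63 at PT 20, 40 and 80 ppm. In block 3 alone it was -1.86 at FT 2.5 ppm and 0.0084 at PT 80 ppm, and in block 1 alone -2.50 at FT 10 ppm. In the adjusted values it was 1.63, 2.14 and 1.99 at FT 2.5, 5 and 10 ppm, 1.33, 2.18 and 1.84 at MT 25, 50 and 100 ppm, and 2.67, 1.81 and 3.01 at PT 20, 40 and 80 ppm. The cause was not tested. No paired analysis was possible because the replicate numbers follow accession order and only name the mice. Leaving out PT 20, PT 80 or U.S. EPA mice in turn was added after seeing the data.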
